A study of Mus musculus with 11 samples.

Results

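The lymph node (LN) and the spleen of mice that carry BCL2 as a knock-in in the immunoglobulin kappa (Igk) locus were compared gene by gene. The members are 4 of the 11 libraries of the study: the spleen and the LN of knock-in mouse 5 and the spleen and the LN of knock-in mouse 6, taken by their labels and paired by the subject number that both tissues of 1 mouse share. The genotype of all 4 is given as Knock-in (Igk-BCL2), so both tissues carry the insertion and the comparison is of organs, not of genotypes. Both mice received sheep red blood cells intraperitoneally, repeated over 3 months, and tissue was collected 1 month after the third immunisation. RNA came from dissociated cells of the whole tissue, with no sort stated, and libraries were made with a SMARTER kit. Age, strain, zygosity, the species of the inserted BCL2 and the position of the LN in the body are not given in the sources used here. Each group is 2 mice, so differences rest on 2 pairs.

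Spleen and LN both hold B cell follicles, T cell zones and germinal centres, in which B cells stimulated by antigen divide and mutate their antibody genes. The spleen also filters blood. Its red pulp contains macrophages that take up ageing red cells and recycle their iron, stored platelets and, in mice, erythroid precursors, and its marginal zone holds a B cell population that the LN largely lacks. The LN filters lymph through sinuses lined by their own macrophages and receives most naive lymphocytes through the blood vessel wall.

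The 4 libraries held 15125180 to 24110325 reads over the 10885 genes of the table, and the spleens were the deeper pair. Expression is given as the deposited normalised value, a read count divided by 1 factor per library and not by gene length, so a value is compared between libraries and never between genes. Differences are LN minus spleen of log2(value + 1), averaged over the 2 mice and shown ± the standard error of the paired fit (n = 2 mice). A gene is called higher or lower at a Benjamini-Hochberg adjusted p under 0.05 over all genes in limma. Bcl2 (ENSMUSG00000057329), which blocks mitochondrial apoptosis, measured 1249 in spleen and 1246 in LN of mouse 5, and 1299 and 1664 in mouse 6. The tissues overlapped, and the difference of 0.18 ± 0.11 (limma adjusted p = 0.325) was not called. How far reads from the inserted gene are counted under the mouse gene is not known here. Genes known from spleen followed the labels in both mice: the iron exporter gene Slc40a1 and the erythroid factor gene Klf1 were above 100 in each spleen and below 10 in each LN. Both genes are also among the differences reported below, and no marker of LN was used, so this is not a separate check of the labels. Markers of exocrine pancreas (0 of 10) and of fat (0 of 8) were not in the table, and 4 of 19 markers of lymphoid stroma and endothelium were. The mice differed in their light chains. The 79 kappa V segments summed to 172700.4 and 206681 in spleen and LN of mouse 5 but to 142 and 168 in those of mouse 6, in which 42 and 38 of them were listed at 0.

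LN and spleen differed at 2145 of 10885 genes (19.7%), with 1142 higher in LN (10.5%) and 1003 lower (9.21%). The largest differences lay on the side of the spleen: 88 genes were over 8-fold lower in LN and 4 over 8-fold higher, although the counts over 2-fold were closer, at 365 and 331. All 2145 called genes had the same sign in both mice, against 70.3% of all genes, a property that the paired test favours. Across all genes the tissue difference of mouse 5 correlated with that of mouse 6 at r = 0.822 (Spearman rho = 0.631), as a description over genes that share 4 libraries. The median difference over all genes was 0.01 on the log2 scale, and 5% of genes lay below -0.75 and 5% above 0.80. In 28.7% of genes both LN were above both spleens, and in 27.4% both were below. The count of called genes depended on the fit, with 1237 (623 higher and 614 lower) when the mouse was not a term of the model (the unpaired fit), of which 1234 were among the 2145. Leaving out 1 library from the fit without the mouse term gave 648 without the spleen of mouse 5, 1007 without the LN of mouse 5, 285 without the spleen of mouse 6 and 949 without the LN of mouse 6.

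**Figure D1:**
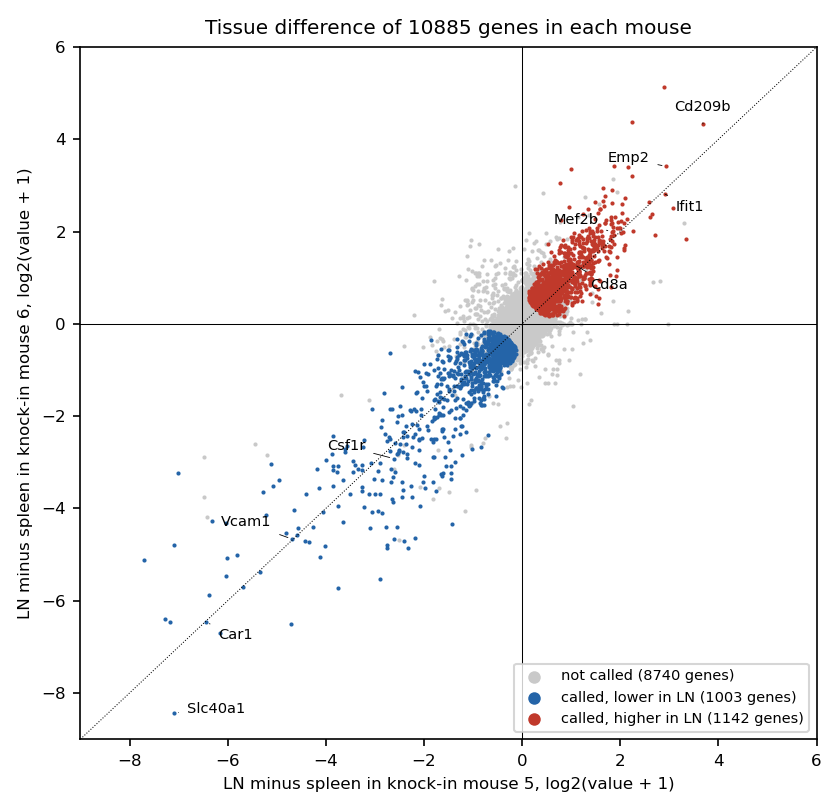
Difference LN minus spleen on the log2(value + 1) scale in mouse 5 (horizontal axis) and mouse 6 (vertical axis), 1 point per gene; red, 1142 genes called higher in LN; blue, 1003 called lower; grey, not called; dotted line, equal differences in both mice. The called genes lie in the lower left and upper right quadrants, and the lower left arm reaches farther from 0, to Slc40a1.

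Genes of red pulp macrophages were far lower in LN. Of 17 measured members of the red pulp macrophage and iron list, 14 were lower in LN and 0 higher, with a median difference of -3.51 against 0.01 over all genes. Slc40a1, which encodes ferroportin, the exporter through which macrophages return iron to the blood, measured 1180.0 in spleen and 7.68 in LN of mouse 5, and 1535 and 3.45 in mouse 6. Its difference of -7.76 ± 0.32 (limma adjusted p = 5.9e-09) was the largest decrease among the named genes, and the LN values stand for 7 reads and 3 reads. Vcam1, an adhesion molecule of red pulp macrophages, measured 1502 in spleen and 57.1 in LN of mouse 5, and 1568 and 60.9 in mouse 6, or 26.0-fold lower in LN, with a difference of -4.68 ± 0.14 (limma adjusted p = 7.69e-15). The 2 mice gave nearly the same value in each tissue. Haem oxygenase gene Hmox1 was -4.58 ± 0.25 (limma adjusted p = 0.000323), and the macrophage scavenger protein gene Cd5l -4.67 ± 0.25 (limma adjusted p = 2.66e-11). Axl and Mertk, receptors for the uptake of dying cells, differed by -2.72 ± 0.13 and -4.53 ± 0.37, and Spic, the transcription factor of these macrophages, by -3.97 ± 0.35. Cd163, the haemoglobin scavenger receptor, measured 286 in spleen and 2.2 in LN of mouse 5, and 143 and 18.4 in mouse 6, below both spleens in both LN but at different distances, and at -4.69 ± 1.35 (limma adjusted p = 0.235) it was not called. The ferritin genes Ftl1 and Fth1, which nearly all cells express, moved less, at -0.53 ± 0.12 and -0.38 ± 0.13, and Fth1 was not called (limma adjusted p = 0.0537). In RNA of whole tissue, fewer cells of a type and less RNA per cell cannot be told apart, here and in all lists that follow.

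General monocyte and macrophage genes and the complement genes that macrophages make followed the same direction. In the monocyte and macrophage list 12 of 13 measured genes were lower in LN and 0 higher, with a median of -2.08. Csf1r, the receptor for macrophage colony-stimulating factor, measured 2807 in spleen and 457 in LN of mouse 5, and 2129 and 280.4 in mouse 6, a difference of -2.77 ± 0.11 (limma adjusted p = 1.52e-12), and Adgre1, which encodes the macrophage marker F4/80, was -3.17 ± 0.15 (limma adjusted p = 3.6e-12). The member that was not called was Ly6c2 at 0.78 ± 0.24 (limma adjusted p = 0.144), a gene that plasmacytoid cells and some T cells also express. For complement, 7 of 8 genes were lower in LN. The 3 chains of C1q, which starts the classical pathway, differed by similar amounts, with C1qa at -3.25 ± 0.15, C1qb at -3.23 ± 0.17 and C1qc at -3.51 ± 0.16, and C6, a component of the membrane attack complex, was -5.69 ± 0.55 (limma adjusted p = 1.66e-07). Fcna, a plasma ficolin of the lectin pathway made by macrophages, measured 492 in spleen and 2.2 in LN of mouse 5, and 663 and 6.9 in mouse 6, a difference of -6.83 ± 0.35 (limma adjusted p = 1.6e-11). Without the mouse term 14, 11 and 7 genes of the red pulp, monocyte and complement lists were lower. At least 12, 7 and 5 were lower with 1 library left out as well. In the monocyte list the lowest count, 7, came without either spleen.

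Not all tissue macrophage genes were lower in LN. The list of marginal zone and sinus macrophages held 6 measured genes, 2 higher in LN and 2 lower. Cd209b, a C-type lectin of macrophages that face blood or lymph, measured 4.29 in spleen and 67.0 in LN of mouse 5, and 4.3 and 106 in mouse 6, which is 5 and 6 reads in the spleens, a difference of 4.01 ± 0.53 (limma adjusted p = 8.84e-06). Siglec1, the sialic acid receptor CD169 of sinus macrophages, measured 106 and 182 in mouse 5 and 86.7 and 148 in mouse 6, and was 0.77 ± 0.21 (limma adjusted p = 0.0134), a call not made without the mouse term. Mrc1, the mannose receptor, went the other way, with 541 and 27.4 in mouse 5 and 578 and 26.4 in mouse 6, a difference of -4.33 ± 0.22 (limma adjusted p = 1.37e-11). Marco, a scavenger receptor of marginal zone and LN sinus macrophages, measured 105 and 62.6 in mouse 5 and 78.1 and 137 in mouse 6 and did not differ in one direction in the 2 mice. The median of the list was -0.09. Without the mouse term 1 gene was higher and 2 were lower. In fits with 1 library fewer, 0 were higher without the LN of mouse 5, where Cd209b lost its call and the median was 0.60, and 1 was higher without any other library, with a median of -0.83 without the LN of mouse 6. Stab2, a hyaluronan receptor of sinus endothelium, was -3.47 ± 0.37 (limma adjusted p = 5.9e-07) and was the 1 called gene of the stroma and endothelium list, a call not made when either spleen was left out of the fit without the mouse term.

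Red cell genes were high in the spleen, by different amounts in the 2 mice. Of 26 measured erythroid genes 20 were lower in LN and 0 higher, with a median of -3.84 (-4.37 in mouse 5 and -2.94 in mouse 6). Car1, a carbonic anhydrase of red cells, measured 471 in spleen and 4.39 in LN of mouse 5, and 493 and 4.6 in mouse 6, nearly the same in the 2 mice, and differed by -6.46 ± 0.34 (limma adjusted p = 2.64e-11). Klf1, the transcription factor that activates globin genes, was -4.49 ± 0.48 (limma adjusted p = 5.82e-07), and Epor, the erythropoietin receptor, -4.07 ± 0.54 (limma adjusted p = 2.57e-05). Globin genes were more variable. Hba-a1, an alpha globin gene, measured 9647 in spleen and 112 in LN of mouse 5, and 1113 and 59.8 in mouse 6, and Hbb-bs, a beta globin gene, measured 10236 in spleen and 113 in LN of mouse 5, and 906 and 66.7 in mouse 6. Both spleens were above both LN for each, but the spleen of mouse 5 was far above that of mouse 6, and neither gene was called, at -5.31 ± 1.01 and -5.12 ± 1.25 (limma adjusted p = 0.253 and 0.304). Hba-a2 is a near-identical copy of Hba-a1, with which it may share reads. It measured 1726 in spleen and 23.0 in LN of mouse 5, and 222 and 1.15 in mouse 6, the last being 1 read. Its difference was -6.43 ± 0.31 (limma adjusted p = 5.97e-12), a call not made without the mouse term or with a pseudocount of 20. The summed value of the 26 genes was 39416 in spleen and 7622 in LN of mouse 5, and 14461 and 6914 in mouse 6. Tfrc, the transferrin receptor, which dividing lymphocytes also use, was the member nearest to 0, at -0.01 ± 0.13. Without the mouse term 18 members were lower, and leaving out 1 library as well gave 9 without the spleen of mouse 5, 14 and 12 without the LN of mouse 5 and of mouse 6, and 17 without the spleen of mouse 6.

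Promoter sequences of 2 called erythroid genes are shown because the motif of GATA factors, regulators of erythroid genes, occurs in them. Each is the 150 bases before the annotated start of the gene in RefSeq (GRCm38.p6), with the motif GATAAG or its reverse complement CTTATC in capitals.
Klf1 (chr8:84901832-84901981, plus strand): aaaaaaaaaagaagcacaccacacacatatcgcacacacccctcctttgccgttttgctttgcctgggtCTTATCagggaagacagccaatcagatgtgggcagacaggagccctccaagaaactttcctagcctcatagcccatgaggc
Epor (chr9:21963577-21963726, minus strand): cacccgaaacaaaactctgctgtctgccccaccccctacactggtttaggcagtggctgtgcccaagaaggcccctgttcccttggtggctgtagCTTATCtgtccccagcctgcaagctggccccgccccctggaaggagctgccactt
The window searched ran from 250 bases before to 50 bases after the start. GATAAG on either strand occurred in 8 of the 17 erythroid genes with an entry and in 1 of 12 genes of the red pulp list. It occurred in 6.13% of the 8496 tested genes with an entry and in 7.44% of all 32851 windows of 300 bases in that table. A match describes these letters only and shows no binding.

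Platelet genes formed a smaller group, with 7 of 17 listed genes in the table, 6 of them lower in LN. Ppbp and Pf4, chemokines of platelet granules, were listed at 0 in both LN and measured 143 and 86.7 (Ppbp) and 63.5 and 33.0 (Pf4) in the spleens of mouse 5 and 6. Against a floor of 3 reads in each LN library, Ppbp was at least 34.1-fold lower and Pf4 at least 14.3-fold lower in LN. With these genes at the floor the median of the list was -4.05, and -4.34 as fitted. Vwf, von Willebrand factor, which endothelium also makes, was -4.34 ± 0.50 (limma adjusted p = 1.49e-06). The exception was Itgb3, an integrin chain that platelets share with lymphocytes and macrophages, at 0.77 ± 0.11 (limma adjusted p = 2.65e-05). The 6 lower calls stood without either LN library, in the fit without the mouse term, but 0 of them were made without the spleen of mouse 5 and 1 without the spleen of mouse 6.

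Granulocyte genes were lower in LN in both mice, from different levels in the spleens. Of 21 neutrophil genes 13 were lower in LN and 0 higher, with a median of -2.61 (-1.71 in mouse 5 and -3.30 in mouse 6), and the summed value was 3244 in spleen and 903 in LN of mouse 5, and 9169 and 759 in mouse 6. The 2 LN were alike and the spleen of mouse 6 was well above that of mouse 5. S100a8, a subunit of calprotectin, measured 280.4 in spleen and 65.9 in LN of mouse 5, and 898 and 77.0 in mouse 6 and was not called (limma adjusted p = 0.0838). Il1b, the cytokine interleukin 1 beta, which monocytes also make, was -3.50 ± 0.29 (limma adjusted p = 1.24e-07), and Cxcr2, the chemokine receptor of neutrophils, -3.64 ± 0.48 (limma adjusted p = 0.000457). Camp, an antimicrobial granule peptide, was -2.47 ± 0.39 (limma adjusted p = 0.00124) and lost its call without the mouse term. Without that term 7 neutrophil genes were lower, and without 1 library as well 12 (spleen of mouse 5), 3 (LN of mouse 5), 5 (spleen of mouse 6) and 2 (LN of mouse 6). Among mast cell, basophil and eosinophil genes 3 of 7 measured were lower in LN, with Ccr3, an eosinophil chemokine receptor, at -3.85 ± 0.43 (limma adjusted p = 1.08e-06). No member of that list was called without the spleen of mouse 5, and 1 without the spleen of mouse 6.

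Genes of natural killer (NK) cells and cytotoxic T cells were more often lower than higher in LN. Of 19 measured, 8 were lower and 2 higher, with a median of -0.44. Beside 9.21% of all genes called lower and 10.5% called higher, the count of higher genes was near the share over all genes. S1pr5, a sphingosine phosphate receptor of mature NK cells, measured 268 in spleen and 34.0 in LN of mouse 5, and 238 and 25.3 in mouse 6, a difference of -3.06 ± 0.26 (limma adjusted p = 3.32e-08). Gzma, granzyme A, was -2.08 ± 0.16 (limma adjusted p = 7.21e-09), not called without the mouse term, and Ncr1, the NK receptor NKp46, -1.47 ± 0.26 (limma adjusted p = 0.000286). The 2 higher genes were Txk, a T cell and NK cell kinase, at 0.87 ± 0.13 (limma adjusted p = 2.81e-05), and Nkg7, a protein of cytotoxic granules, at 0.38 ± 0.11 (limma adjusted p = 0.0223). Tbx21 and Zeb2, transcription factors of NK cells and effector T cells, were lower, at -0.78 ± 0.13 (limma adjusted p = 0.000179) and -0.84 ± 0.12 (limma adjusted p = 2.83e-05). Eomes and Gzmb, at 0.21 ± 0.12 and -0.02 ± 0.23, were not called (limma adjusted p = 0.273 and 0.969). Unpaired, 4 were lower and 1 higher, and 2 to 5 were lower with 1 library left out in addition, the lowest without the spleen of mouse 5.

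Calls among dendritic cell genes differed by list, beside 10.5% of all genes called higher in LN and 9.21% called lower. The counts of the conventional list were near those shares. Of 9 measured genes of conventional dendritic cells, 1 was lower in LN, the secreted nuclease Dnase1l3 at -0.96 ± 0.14 (limma adjusted p = 3.27e-05), and 1 higher, the cytokine receptor Flt3 at 0.59 ± 0.13 (limma adjusted p = 0.00167), a call not made without the mouse term. In fits with 1 library fewer, 2 genes of that list were higher without the LN of mouse 5 and 0 without any other, and 0 to 3 were lower, the fewest without the spleen of mouse 6. Clec9a, a receptor of cross-presenting dendritic cells, measured 139 and 63.7 in mouse 5 and 123 and 282 in mouse 6, lower in the LN of one mouse and higher in the LN of the other. Genes of mature dendritic cells were higher in 4 of 10 cases and lower in 1. Ccl22, a chemokine for regulatory and helper T cells, was 1.90 ± 0.36 (limma adjusted p = 0.000508), and Fscn1, an actin-bundling protein of these cells, 1.06 ± 0.11 (limma adjusted p = 5.17e-07). Cd80, a costimulatory ligand, was lower, at -0.59 ± 0.20 (limma adjusted p = 0.0394). In the plasmacytoid list 2 of 10 were higher in LN, and its median was -0.58 in mouse 5 and 0.88 in mouse 6. Siglech, the plasmacytoid cell lectin, measured 714 in spleen and 320.5 in LN of mouse 5, and 803 and 1555 in mouse 6. Within mouse 5 the spleen was above the LN, and within mouse 6 the LN was above the spleen. Bst2, or tetherin, which interferon also induces, was 0.91 ± 0.19 (limma adjusted p = 0.0246), not called without the mouse term. With 1 library left out of the fit without the mouse term, mature dendritic cell genes were higher in 3 cases without the LN of mouse 5 and in 1 case without any other library. For plasmacytoid genes 7 were higher without the LN of mouse 5, and 3 were lower without the LN of mouse 6.

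**Figure D2:**
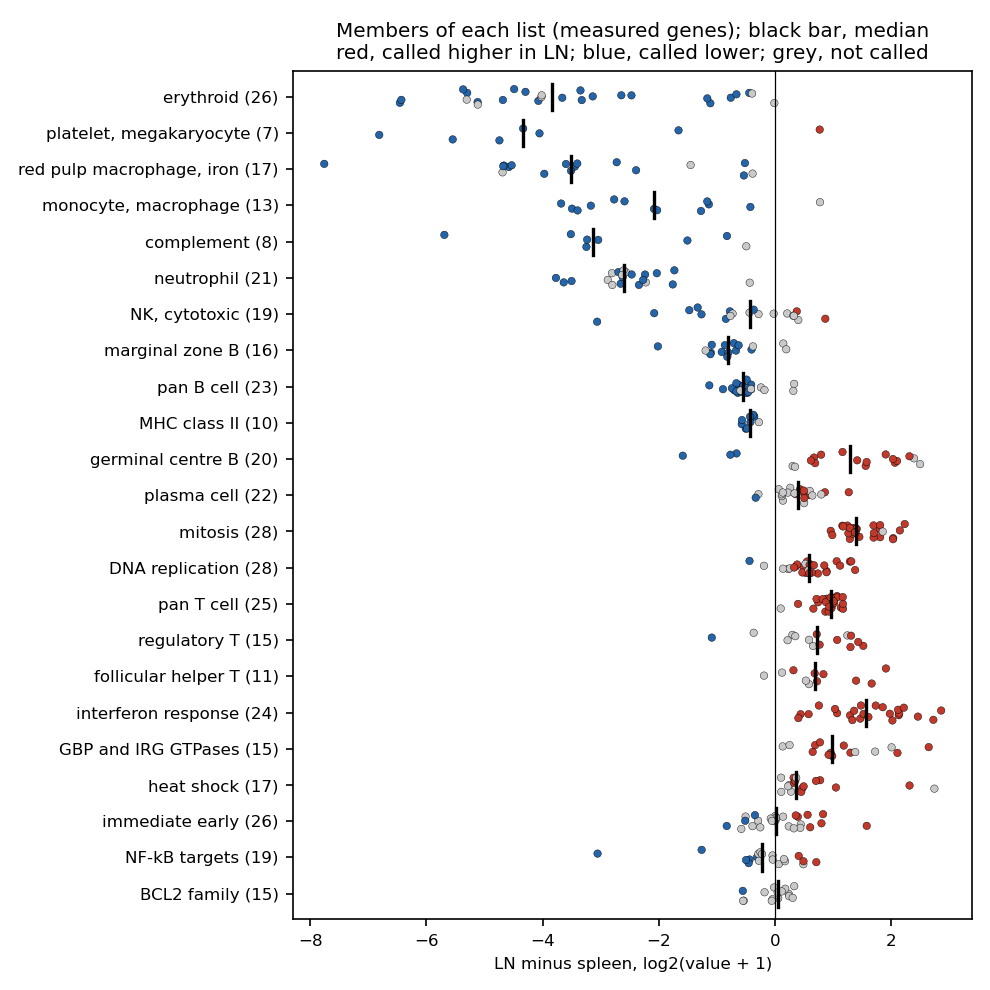
Difference LN minus spleen on the log2(value + 1) scale for each measured gene of 23 lists (1 point per gene, numbers of genes in parentheses); red, called higher in LN; blue, called lower; grey, not called; black bar, median of the list. Blood cell and macrophage lists extend to the left, to Slc40a1 at -7.76. The mitosis, pan T cell and interferon response lists lie to the right of 0.

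Genes shared by all B cells were modestly lower in LN. Of 23 pan B cell genes 16 were lower and 0 higher, with a median of -0.55 (-0.26 in mouse 5 and -0.75 in mouse 6). Bank1, an adaptor of B cell receptor signalling, was -0.89 ± 0.12 (limma adjusted p = 6.93e-06), Cd72, an inhibitory co-receptor, -0.66 ± 0.11 (limma adjusted p = 0.000144), and Cd79a, a signalling chain of the B cell receptor, -0.70 ± 0.13 (limma adjusted p = 0.000716). Ms4a1, which encodes CD20, measured 13077 in spleen and 12079.6 in LN of mouse 5, and 13227 and 10256 in mouse 6, both LN below both spleens, and at -0.24 ± 0.11 was not called (limma adjusted p = 0.165). Pou2af1, a transcriptional coactivator that germinal centre B cells hold at high level, stood at 0.33 ± 0.12, also not called (limma adjusted p = 0.0733). The decrease was larger in mouse 6 for most of the list. Over the same libraries the summed value of 25 T cell genes was 36477 in spleen and 62901 in LN of mouse 5, and 39427 and 80182 in mouse 6. What part the higher share of T cell RNA has in the lower B cell values was not tested. The pan B cell counts were fragile. In the unpaired fit 11 genes were lower, and with 1 library left out as well 4 (spleen of mouse 5), 17 (LN of mouse 5), 0 (spleen of mouse 6) and 6 (LN of mouse 6).

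Marginal zone genes were lower in LN by more than pan B cell genes at the median, a difference that was not tested. In that list 12 of 16 measured genes were lower and 0 higher, with a median of -0.81. Fcrl5, an Fc receptor-like protein of marginal zone and B1 cells, measured 551 in spleen and 132 in LN of mouse 5, and 409 and 103 in mouse 6, 4.08-fold lower in LN, with a difference of -2.02 ± 0.16 (limma adjusted p = 7.74e-09). The groups did not overlap, and the LN values of the 2 mice were close. Cr2, complement receptor 2, which follicular dendritic cells also carry, was -0.67 ± 0.12 (limma adjusted p = 0.000363), and the receptor Notch2, required for the marginal zone fate, -0.82 ± 0.11 (limma adjusted p = 1.23e-05). Its target Dtx1 was at 0.19 ± 0.12 and was not called (limma adjusted p = 0.291). S1pr3, a sphingosine phosphate receptor of marginal zone B cells, was -1.11 ± 0.20 (limma adjusted p = 0.00216). Without the mouse term 10 were lower, and with 1 library left out as well 5 (spleen of mouse 5), 10 (LN of mouse 5), 3 (spleen of mouse 6) and 8 (LN of mouse 6).

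Components of B cell receptor signalling and of antigen presentation on MHC class II shifted in the same direction by small amounts. Of 24 receptor signalling genes 13 were lower in LN and 0 higher, with a median of -0.41. Fcgr2b, the inhibitory Fc receptor, was -0.79 ± 0.11 (limma adjusted p = 2.19e-05), and Syk, the kinase next to the receptor, -0.57 ± 0.12 (limma adjusted p = 0.00202). In the class II list 9 of 10 genes were lower, with a median of -0.42. H2-Aa, an alpha chain, measured 34753 in spleen and 25193 in LN of mouse 5, and 38613 and 24104 in mouse 6, and differed by -0.57 ± 0.12 (limma adjusted p = 0.00111). Cd74, the invariant chain, was -0.50 ± 0.13 (limma adjusted p = 0.0113), and Ciita, the master activator of the locus, -0.28 ± 0.11 and not called (limma adjusted p = 0.0992). These calls depended on the fit. Class II genes were lower in 3 cases without the mouse term and in 0 without the variance trend, and receptor genes in 10 and 2. With 1 library left out, 11 receptor genes were lower without the LN of mouse 5 and 1 without any other, and 2 class II genes were lower without the LN of mouse 5 and 0 without any other.

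Germinal centre genes were higher in LN. Of 20 genes 13 were higher and 3 lower, with a median of 1.29, and the summed value was 25919 in spleen and 50880.0 in LN of mouse 5, and 22101 and 40241 in mouse 6. Mef2b, a transcription factor active in germinal centres, measured 724 in spleen and 2566 in LN of mouse 5, and 499 and 1984 in mouse 6, 3.72-fold higher in LN, with a difference of 1.91 ± 0.11 (limma adjusted p = 5.31e-11). Both LN were above both spleens, and mouse 5 was above mouse 6 in each tissue. Nuggc, a nuclear GTPase of germinal centre B cells, was 2.03 ± 0.12 (limma adjusted p = 5.44e-10), and Rgs13, a regulator of chemokine receptor signals, 2.10 ± 0.14 (limma adjusted p = 8.17e-10). S1pr2, which confines cells to the germinal centre, was 2.07 ± 0.12 (limma adjusted p = 9.11e-09), and Bcl6, the repressor that the reaction requires, 0.67 ± 0.11 (limma adjusted p = 0.000136). Mybl1, a transcription factor, and Gcsam, a signalling adaptor, both of germinal centre B cells, were above the spleen in each LN but by unequal steps, and at 2.39 ± 0.33 and 2.50 ± 0.56 neither was called (limma adjusted p = 0.0722 and 0.249). The 3 lower genes were Gpr183 at -0.77 ± 0.11 (limma adjusted p = 2.38e-05), a receptor that germinal centre B cells switch off, Lmo2 at -0.66 ± 0.11 (limma adjusted p = 0.000192), a transcription cofactor that erythroid and endothelial cells also express, and Ackr2, a scavenger of chemokines, at -1.59 ± 0.28 (limma adjusted p = 0.000283). Unpaired, 10 were higher, and with 1 library left out as well 11 (spleen of mouse 5), 8 (LN of mouse 5), 8 (spleen of mouse 6) and 9 (LN of mouse 6).

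Cell division genes were higher in LN as a group. In the mitosis list 27 of 28 genes were higher and 0 lower, with a median of 1.39 (1.38 in mouse 5 and 1.41 in mouse 6), and the summed value was 7894 in spleen and 20519.7 in LN of mouse 5, and 4684 and 15881 in mouse 6. Nek2, a centrosome kinase, measured 164 in spleen and 567 in LN of mouse 5, and 105 and 376 in mouse 6, a difference of 1.81 ± 0.15 (limma adjusted p = 2.47e-08). Tpx2, a spindle assembly factor, was 1.70 ± 0.14 (limma adjusted p = 1.31e-08), Kif11, the motor that separates spindle poles, 1.80 ± 0.14 (limma adjusted p = 8.21e-08), and Bub1b, a checkpoint kinase, 1.39 ± 0.12 (limma adjusted p = 5.37e-08). Mki67, which encodes Ki-67, measured 1882 in spleen and 4818 in LN of mouse 5, and 710.0 and 3639.8 in mouse 6, higher in both LN but by unequal steps, and was the member not called (limma adjusted p = 0.153). Of 28 measured DNA replication genes 21 were higher and 1 lower, with a median of 0.58. Uhrf1, which maintains DNA methylation in dividing cells, was 1.29 ± 0.11 (limma adjusted p = 5.17e-08), Rrm2, a ribonucleotide reductase subunit, 1.12 ± 0.13 (limma adjusted p = 1.43e-06), and the helicase subunit Mcm2 0.49 ± 0.11 (limma adjusted p = 0.00211). Pold1, the catalytic subunit of DNA polymerase delta, was the 1 lower gene, at -0.44 ± 0.13 (limma adjusted p = 0.0311). Tpx2 and Kif11 were not called without the mouse term. Without that term 19 mitosis and 17 replication genes were higher. If 1 library was also left out, the counts were 24 and 7 (spleen of mouse 5), 12 and 5 (LN of mouse 5), 8 and 1 (spleen of mouse 6), and 18 and 16 (LN of mouse 6).

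The promoter of Kif11 is shown for the cell cycle genes homology region, an element of mitotic gene promoters whose core is TTTGAA. It is the 150 bases before the RefSeq start (GRCm38.p6), with the core, here on the other strand, in capitals.
Kif11 (chr19:37376232-37376381, plus strand): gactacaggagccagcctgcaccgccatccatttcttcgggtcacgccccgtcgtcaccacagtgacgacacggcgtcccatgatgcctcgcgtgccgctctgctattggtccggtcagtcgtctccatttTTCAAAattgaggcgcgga
The core occurred on either strand in 16 of the 23 mitosis genes with an entry and 3 of 24 replication genes. It occurred in 14.5% of the 8496 tested genes with an entry and in 17.9% of all windows of 300 bases. Among genes of the other lists searched, it occurred in 4 of 9 GTPases of the interferon gamma response, 4 of 12 red pulp genes, 2 of 18 interferon genes and 0 of 17 erythroid genes.

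**Figure D3:**
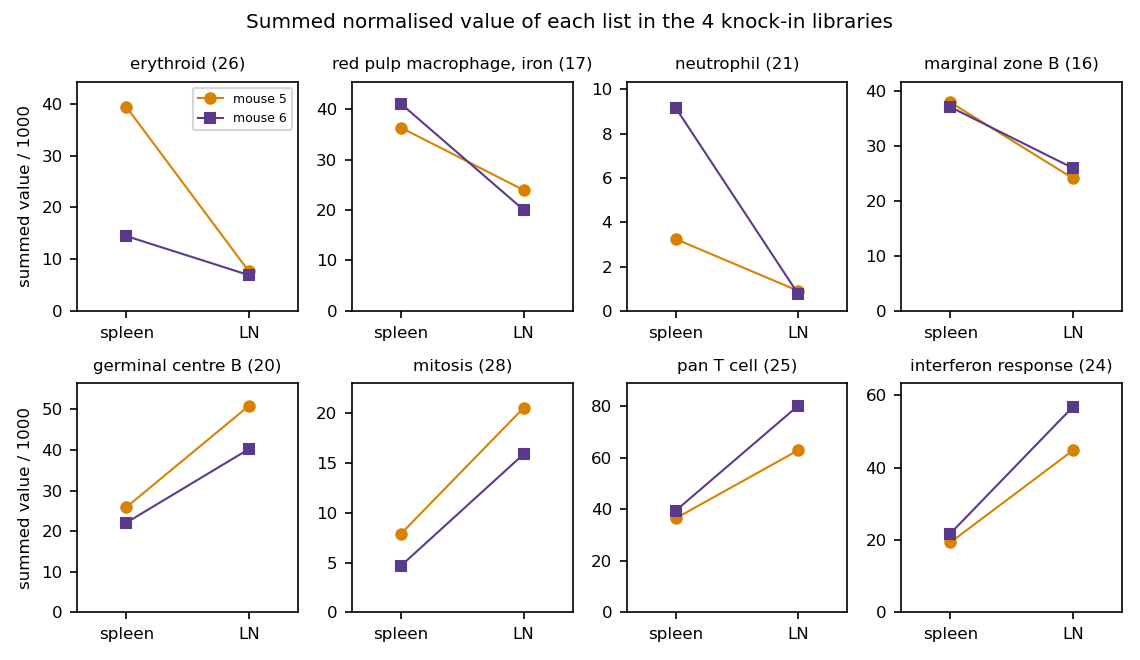
Summed normalised value, divided by 1000, of the measured genes of 8 lists (numbers in parentheses) in the spleen and LN of mouse 5 (orange circles) and mouse 6 (purple squares); each vertical axis starts at 0. Lines join the 2 tissues of 1 mouse, and all fall in the first row and all rise in the second row, with the erythroid and neutrophil spleens of the 2 mice far apart.

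Among antibody constant regions, the early isotypes were lower in LN and several switched isotypes higher. Of 12 measured, 4 were higher and 2 lower, beside 10.5% and 9.21% of all genes. Ighm, the constant region of IgM, measured 178857 in spleen and 82746 in LN of mouse 5, and 154199 and 75809 in mouse 6, a difference of -1.07 ± 0.12 (limma adjusted p = 1.29e-06), and Ighd, that of IgD, was -1.16 ± 0.12 (limma adjusted p = 1.3e-06). Ighg2b measured 161053 in spleen and 318201 in LN of mouse 5, and 50931 and 156168 in mouse 6, so the tissues overlapped although each LN was above its own spleen, and differed by 1.30 ± 0.15 (limma adjusted p = 4.2e-05). Igha was 0.58 ± 0.12 (limma adjusted p = 0.00111), Ighg2c 0.46 ± 0.14 (limma adjusted p = 0.0213) and Ighe 1.45 ± 0.19 (limma adjusted p = 0.00679). Ighg1, at 0.06 ± 0.12, was not called (limma adjusted p = 0.786). The calls of Ighg2b and Igha were not made without the mouse term, which left 1 higher and 2 lower, the same counts as without any 1 library. The kappa constant region Igkc measured 336217 in spleen and 419339 in LN of mouse 5, and 5793 and 4235 in mouse 6, with a large gap between mice and a small one between tissues. Ighg2b and Ighg2c are alike in sequence, and how shared reads were assigned is not known here.

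A minority of plasma cell genes was higher in LN. Of 22 genes 8 were higher and 1 lower, with a median of 0.40. The called gene with the smallest p was Cd28 at 0.86 ± 0.11 (limma adjusted p = 7.19e-06), a costimulatory receptor that is also a T cell gene. Slamf7, a surface receptor of plasma cells and NK cells, was 0.51 ± 0.12 (limma adjusted p = 0.00402), Ell2, an elongation factor for secretory antibody transcripts, 0.57 ± 0.12 (limma adjusted p = 0.00145), and Prdm1, which encodes the plasma cell regulator Blimp-1, 0.49 ± 0.12 (limma adjusted p = 0.00724). Irf4, which both plasma cells and activated lymphocytes need, was lower, at -0.33 ± 0.11 (limma adjusted p = 0.0379). Jchain, the joining chain of secreted IgM and IgA, measured 105379.7 in spleen and 122649.5 in LN of mouse 5, and 61413 and 128795 in mouse 6, above its spleen in each LN, and at 0.64 ± 0.23 was not called (limma adjusted p = 0.146). Of 22 unfolded protein response genes 2 were higher, near the share of 10.5% over all genes. Dnajb9, a chaperone of the endoplasmic reticulum, was at 0.75 ± 0.11 (limma adjusted p = 4.5e-05). In the unpaired fit 3 plasma cell genes were higher and 0 lower. With that fit and 1 library fewer, 8 were higher without the spleen of mouse 5 and 1 without any other.

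V segments were counted as a class. Of 88 heavy V segments 21 were higher in LN and 2 lower, with a median of 0.51, and without the mouse term 7 were higher. With 1 library left out as well 23 (spleen of mouse 5), 10 (LN of mouse 5), 8 (spleen of mouse 6) and 7 (LN of mouse 6) were higher. Ighv5-6 measured 1029 and 2432 in mouse 5 and 877 and 2726 in mouse 6, a difference of 1.44 ± 0.12 (limma adjusted p = 2.67e-08). Kappa segments were 6 higher and 3 lower of 79, below the shares over all genes (10.5% and 9.21%). Without the mouse term 0 of the 79 were called. Those calls average both mice, although in mouse 6 the segments were near 0 in both tissues. Igkv1-110 measured 6871 and 12576 in mouse 5 and 0.716 and 4.6 in mouse 6, log2 differences of 0.87 and 1.71. A few reads of mouse 6 thus weigh as much in the fit as the values of mouse 5. Igkv1-110 and Igkv8-21 were not called with a pseudocount of 0.1. Igkv8-21 and Igkv4-90 were not called with a pseudocount of 20. The 3 lambda V segments summed to 44821 and 41240.2 in spleen and LN of mouse 5 and to 184634 and 255641 in those of mouse 6, with 0 called.

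**Figure D4:**
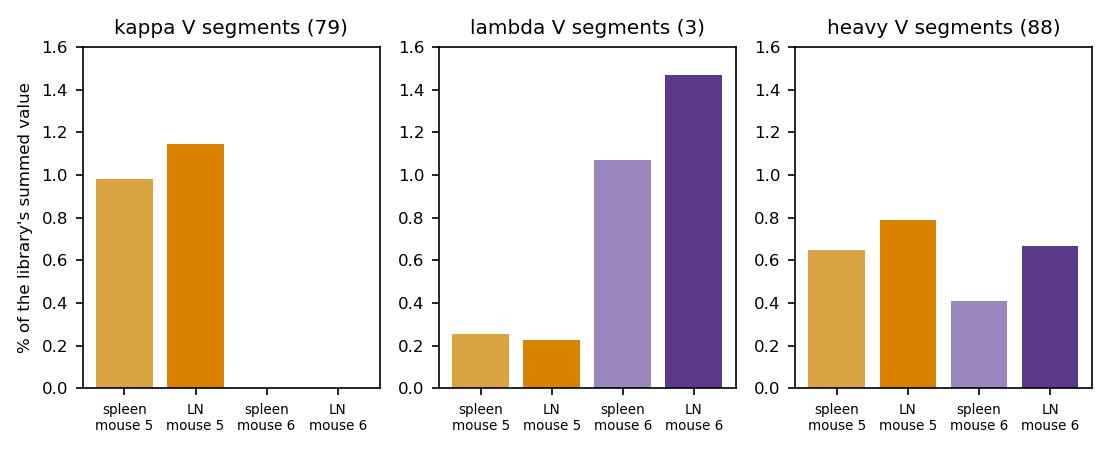
Share of each library's summed normalised value, in percent, taken by 79 kappa, 3 lambda and 88 heavy V segments (bars; 1 bar per library, axes from 0). Kappa segments take 0.983% and 1.15% in mouse 5 and under 0.001% in both tissues of mouse 6, whose lambda bars are taller than those of mouse 5.

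Nearly all T cell genes were higher in LN. Of 25 pan T cell genes 24 were higher and 0 lower, with a median of 0.97 (0.88 in mouse 5 and 1.06 in mouse 6). Cd3d, a chain of the T cell receptor complex, measured 1008 in spleen and 2029 in LN of mouse 5, and 1105 and 2419 in mouse 6, a difference of 1.07 ± 0.11 (limma adjusted p = 2.65e-07). Lef1, a transcription factor of naive T cells, was 1.02 ± 0.11 (limma adjusted p = 4.54e-07). Cd8a, the co-receptor of cytotoxic T cells, was 1.17 ± 0.11 (limma adjusted p = 1.66e-07), not called without the mouse term, and Cd4, that of helper T cells, 0.66 ± 0.16 (limma adjusted p = 0.0178). The member not called was Cd2, an adhesion molecule that B cells of mice also carry, at 0.10 ± 0.11 (limma adjusted p = 0.606). T cell receptor V segments followed, with 10 of 15 higher and a median of 1.03. That count was 7 without the mouse term, 7 when the LN of mouse 5 was left out as well and 0 when any other library was. Without the mouse term 20 pan T cell genes were higher. If 1 library was also left out, the counts were 13 (spleen of mouse 5), 22 (LN of mouse 5), 12 (spleen of mouse 6) and 18 (LN of mouse 6).

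Among T cell subsets, regulatory and follicular helper genes were more often higher than lower. For regulatory T cells 7 of 15 were higher and 1 lower, with a median of 0.72. Foxp3, which defines these cells, measured 312 in spleen and 442 in LN of mouse 5, and 191 and 368 in mouse 6, a difference of 0.72 ± 0.15 (limma adjusted p = 0.00119), Ctla4, an inhibitory receptor, was 1.43 ± 0.15 (limma adjusted p = 9.85e-07), and Itgae, the integrin chain CD103, 1.52 ± 0.14 (limma adjusted p = 9.5e-08). Capg, an actin-capping protein that myeloid cells also express, was the lower one, at -1.09 ± 0.11 (limma adjusted p = 4.07e-07). For follicular helper T cells, which drive germinal centres, 7 of 11 measured genes were higher and 0 lower, with a median of 0.68. Tox2 was 1.67 ± 0.18 (limma adjusted p = 1.58e-05) and Icos, a costimulatory receptor, 1.40 ± 0.18 (limma adjusted p = 0.000517). Il21, the cytokine of these cells, measured 65.2 and 112 in mouse 5 and 7.16 and 66.7 in mouse 6 and was at 1.91 ± 0.55 (limma adjusted p = 0.0496). Pan T cell genes had a median of 0.97, and no test set these lists apart from T cells as a whole. Unpaired, 5 regulatory and 2 follicular helper genes were higher, and Tox2 lost its call. With that fit and 1 library fewer, the counts were 6 and 4 (spleen of mouse 5), 3 and 1 (LN of mouse 5), 2 and 1 (spleen of mouse 6) and 4 and 0 (LN of mouse 6).

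Receptors that position lymphocytes were lower in LN in 9 of 19 cases and higher in 2, with a median of -0.24. Over all genes 9.21% were called lower and 10.5% higher, so the count of higher receptors was near the share over all genes. Ccr6, a chemokine receptor of B cells and some T cells, measured 979 in spleen and 338 in LN of mouse 5, and 669 and 213 in mouse 6, a difference of -1.59 ± 0.13 (limma adjusted p = 9.15e-09), which was not called without the mouse term. Cnr2, a cannabinoid receptor that holds B cells in the marginal zone, was -1.02 ± 0.11 (limma adjusted p = 6.4e-07), and Cxcr5, the receptor for follicles, -0.89 ± 0.15 (limma adjusted p = 0.0015). Klf2, a transcription factor of resting lymphocytes, was -0.91 ± 0.15 (limma adjusted p = 0.0019), and S1pr1, the receptor for exit into blood and lymph, -0.32 ± 0.11 (limma adjusted p = 0.0497). Ccr7, which brings naive cells into LN, stood at -0.24 ± 0.11 and was not called (limma adjusted p = 0.137). The 2 higher genes were Itgae and Il7r, the receptor for interleukin 7, at 0.68 ± 0.12 (limma adjusted p = 0.00029). In the unpaired fit 5 were lower and 1 higher, and with 1 library left out 2 to 5 were lower, the fewest without the spleen of mouse 6.

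Interferon response genes were higher in LN in every measured case. Of 27 listed genes 24 were in the table, and all 24 were higher, with a median of 1.57 (1.45 in mouse 5 and 1.75 in mouse 6) and a summed value of 19324 in spleen and 44741 in LN of mouse 5, and 21785 and 56787 in mouse 6. Ifit1, which binds viral RNA, measured 117 in spleen and 891 in LN of mouse 5, and 193 and 1358 in mouse 6, 7.25-fold higher in LN, with a difference of 2.86 ± 0.13 (limma adjusted p = 3.6e-12). Both LN were far above both spleens, and mouse 6 was above mouse 5 in each tissue. Ifit3, its partner, was 2.46 ± 0.11 (limma adjusted p = 3.6e-12), Usp18, which removes the ISG15 tag and restrains the receptor, 2.13 ± 0.11 (limma adjusted p = 1.49e-11), and Oas2, a sensor of double-stranded RNA, 2.14 ± 0.11 (limma adjusted p = 1.37e-11). Ifi44 was 2.73 ± 0.24 (limma adjusted p = 5.67e-07) and Isg15, the ubiquitin-like tag, 2.22 ± 0.15 (limma adjusted p = 7.93e-10). Irf7, the factor that amplifies interferon production, measured 1228 and 4427 in mouse 5 and 1545 and 6664 in mouse 6, a difference of 1.98 ± 0.11 (limma adjusted p = 8.08e-11). The signalling components Stat2 and Irf9 differed less, at 0.40 ± 0.11 and 0.44 ± 0.11, both called. Ifit3 and its close copy Ifit3b, at 2.51 ± 0.17, were not called without the mouse term, which left 21 of 24 higher. With 1 library left out as well 15 (spleen of mouse 5), 20 (LN of mouse 5), 13 (spleen of mouse 6) and 18 (LN of mouse 6) were higher.

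The guanylate-binding proteins (GBP) and immunity-related GTPases (IRG), which attack vacuoles of intracellular pathogens and respond mainly to interferon gamma, were higher in 10 of 15 cases and lower in 0, with a median of 0.99 (0.75 in mouse 5 and 1.31 in mouse 6). Igtp, which encodes Irgm3, measured 918 in spleen and 1801 in LN of mouse 5, and 779 and 2056 in mouse 6, a difference of 1.19 ± 0.12 (limma adjusted p = 5.5e-07). Irgm2 was 0.78 ± 0.11 (limma adjusted p = 3.45e-05), Gbp4 0.92 ± 0.12 (limma adjusted p = 2.81e-05) and Gbp10 2.65 ± 0.38 (limma adjusted p = 0.00298). Iigp1 and Tgtp1 were higher in both LN, but more so in mouse 6, and at 2.01 ± 0.64 and 1.73 ± 0.37 were not called (limma adjusted p = 0.339 and 0.0858). Gbp3 and Gbp5 were nearest to 0, at 0.13 ± 0.12 and 0.25 ± 0.16. Several of these genes are similar in sequence, and reads may be divided among copies. Without the mouse term 12 were higher, and with 1 library left out 10 to 13, except without the spleen of mouse 6, which left 3. Of MHC class I genes, 1 of 11 was higher, near the share of 10.5% over all genes. It was Nlrc5, the activator of that locus, at 0.82 ± 0.16 (limma adjusted p = 0.00631).

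Promoters of 4 called interferon genes are shown because the core of the interferon-stimulated response element, to which interferon-activated factors bind, occurs close to each start. Each is the 150 bases before the RefSeq start (GRCm38.p6), 5′ to 3′ on the strand of the gene, with GAAANNGAAA in capitals wherever it occurs on either strand.
Ifit1 (chr19:34640739-34640888, plus strand): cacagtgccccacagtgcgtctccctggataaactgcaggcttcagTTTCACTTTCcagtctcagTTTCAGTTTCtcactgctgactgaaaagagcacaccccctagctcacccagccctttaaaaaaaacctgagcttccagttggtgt
Ifit3 (chr19:34583379-34583528, plus strand): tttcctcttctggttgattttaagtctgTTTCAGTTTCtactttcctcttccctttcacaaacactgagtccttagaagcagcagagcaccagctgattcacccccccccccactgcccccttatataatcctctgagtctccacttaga
Isg15 (chr4:156200819-156200968, minus strand): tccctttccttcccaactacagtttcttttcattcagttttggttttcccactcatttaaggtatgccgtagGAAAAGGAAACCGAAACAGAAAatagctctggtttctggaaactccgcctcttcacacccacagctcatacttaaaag
Igtp (chr11:58199406-58199555, plus strand): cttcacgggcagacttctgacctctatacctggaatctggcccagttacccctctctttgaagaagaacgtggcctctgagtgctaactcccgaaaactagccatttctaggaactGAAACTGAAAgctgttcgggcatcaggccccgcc
Ifit1 has 2 matches, which begin 104 and 85 bases before the start, and Isg15 has 3 that overlap. The element occurred on either strand in 10 of the 18 interferon genes with an entry and in 9 of 9 GBP and IRG genes with one. It occurred in 1 of 23 mitosis genes, in 0 of 17 erythroid genes, in 4.10% of the 8496 tested genes with an entry and in 3.44% of all windows.

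Stress and activation genes gave smaller and less stable differences. In the heat shock list 10 of 17 were higher in LN and 0 lower, with a median of 0.37. Hspa1b, an inducible HSP70, measured 2100.2 in spleen and 13716 in LN of mouse 5, and 425 and 1620.5 in mouse 6, so the LN of mouse 5 stood far above the other 3 libraries, with a difference of 2.32 ± 0.21 (limma adjusted p = 0.00296). Hspa1a, a near-identical copy, had the same order of libraries, at 2.75 ± 0.41, and was not called (limma adjusted p = 0.107). Hsp90aa1 was 0.71 ± 0.11 (limma adjusted p = 7.32e-05) and Dnajb1, a co-chaperone, 0.78 ± 0.12 (limma adjusted p = 7.14e-05). Unpaired, 1 heat shock gene was higher, and with 1 library left out as well 3 without the LN of mouse 6 and 0 without any other. Immediate early genes, which cells induce within minutes of a stimulus, were higher in 7 of 26 cases and lower in 3, with a median of 0.02. Over all genes 10.5% were called higher and 9.21% lower, and the 3 lower calls were near that share. Rgs1, a brake on chemokine receptors, was 1.58 ± 0.14 (limma adjusted p = 5.77e-08), Egr2, a factor downstream of antigen receptors, 0.83 ± 0.14 (limma adjusted p = 0.000143), and Klf4, a factor of quiescent cells, -0.83 ± 0.14 (limma adjusted p = 0.000433). Fos and Nr4a1 stood at 0.01 ± 0.12 and -0.34 ± 0.11, of which Nr4a1 was called lower. In the unpaired fit 1 was higher and 1 lower. With 1 library left out 5 were higher without the LN of mouse 6 and 1 without any other.

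For NF-kB targets 3 of 19 were higher in LN and 6 lower, beside 10.5% and 9.21% of all genes, with a median of -0.22. Tnfaip2, which macrophages express, had the largest difference, -3.05 ± 0.21 (limma adjusted p = 6.09e-09), and Nfkbiz and Traf1 were higher, at 0.71 ± 0.11 (limma adjusted p = 3.6e-05) and 0.49 ± 0.11 (limma adjusted p = 0.00271). Nfkb2 and Relb, subunits of the noncanonical pathway, were lower, at -0.44 ± 0.11 (limma adjusted p = 0.00687) and -0.31 ± 0.11 (limma adjusted p = 0.0492). With 1 library left out of the fit without the mouse term, the lower calls fell from 5 to 1 or 2.

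The BCL2 family, which sets the threshold for apoptosis, was nearly level between the organs. Of 15 measured genes 0 were higher and 1 lower, beside 10.5% and 9.21% of all genes. The lower gene was Bmf, a BH3-only inducer of cell death. It measured 2285 in spleen and 1866 in LN of mouse 5, and 3496 and 1988 in mouse 6. Its difference of -0.55 ± 0.13 (limma adjusted p = 0.00593) was not called without the mouse term. The survival genes Mcl1 and Bcl2l1 stood at -0.18 ± 0.11 and -0.04 ± 0.15, and the death genes Bcl2l11 and Bax at 0.24 ± 0.11 and -0.01 ± 0.11, all uncalled (limma adjusted p = 0.314, 0.897, 0.133 and 0.956). Housekeeping groups showed few calls: 2 of 78 ribosomal protein genes, 6 of 81 nuclear genes of oxidative phosphorylation and 3 of 46 proteasome genes were higher and 0 lower. Their medians were 0.16, 0.13 and 0.11. Genes of the mitochondrial genome had a median of -0.25 with 1 of 11 lower, near the share of 9.21% over all genes. Cholesterol synthesis had 1 higher and 1 lower of 17. The circadian clock had 2 lower of 13, which is not below that share. Of the tested skeletal muscle genes 0 of 2 were called.

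Some of the largest differences fell outside these lists. Emp2, an epithelial membrane protein, measured 45.5 in spleen and 353 in LN of mouse 5, and 8.6 and 101 in mouse 6, the largest increase named outside the lists, at 3.17 ± 0.31 (limma adjusted p = 2.21e-07). Rsph1, a radial spoke protein of cilia, was 2.79 ± 0.34 (limma adjusted p = 3.53e-06), Pipox, a peroxisomal oxidase, 2.77 ± 0.42 (limma adjusted p = 5.74e-05), and H1f10, a linker histone, 2.61 ± 0.20 (limma adjusted p = 6.02e-09). Emp2 and Pipox were not called without the mouse term. On the other side stood Kcnj10, a potassium channel, at -6.41 ± 0.62 (limma adjusted p = 5.06e-06), Paqr9 at -6.13 ± 0.57 (limma adjusted p = 9.06e-08), Tal1, a transcription factor of erythroid cells and megakaryocytes, at -5.95 ± 0.64 (limma adjusted p = 1.3e-06), and Aqp1, the water channel of red cells and endothelium, at -5.76 ± 0.35 (limma adjusted p = 1.86e-10). For each of these 4 genes both LN libraries were at 7 or below, which is 6 reads or fewer, and fold changes of that size depend on the pseudocount. Of all 23 T cell receptor segments by name, V segments and others, 18 were higher and 0 lower. Of 422 predicted genes 43 were higher and 33 lower, close to the shares over all genes.

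**Figure D5:**
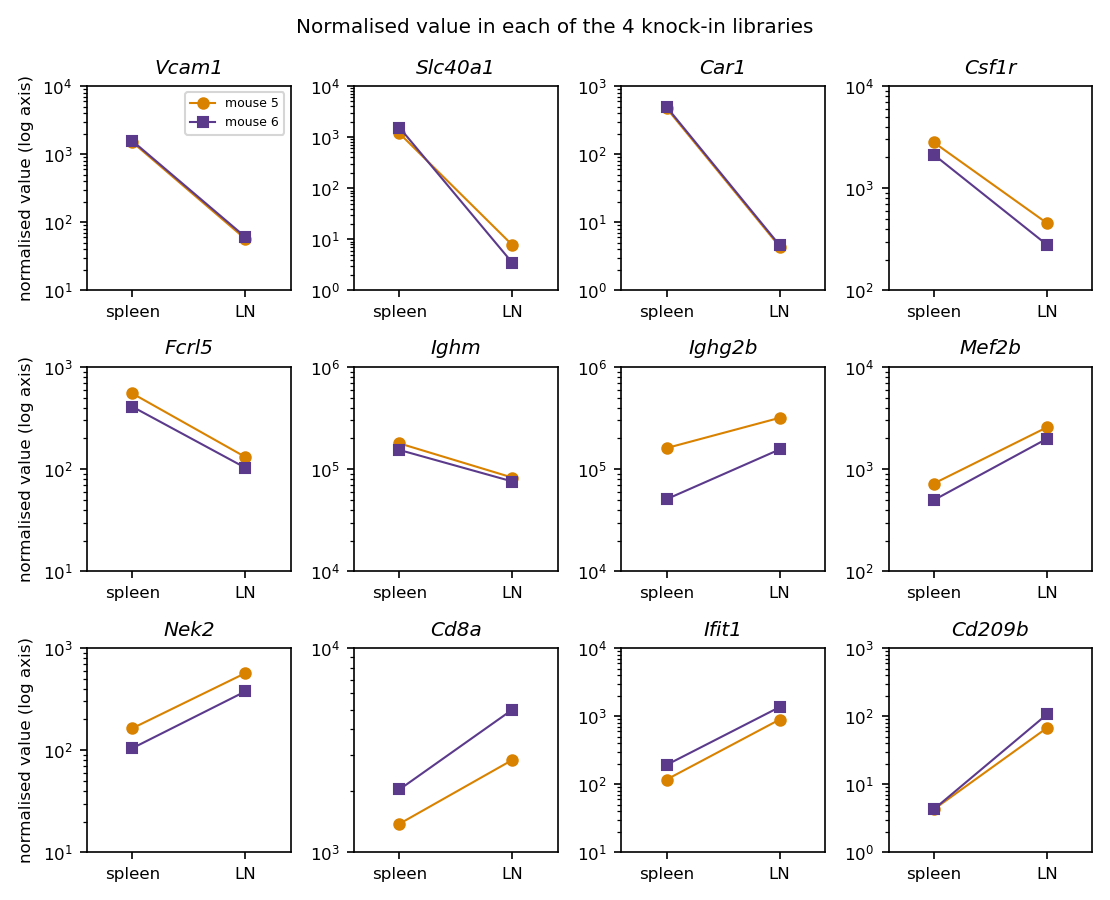
Normalised value (log axes) of 12 genes in spleen and LN of mouse 5 (orange circles) and mouse 6 (purple squares); lines join the tissues of 1 mouse. Vcam1, Slc40a1, Car1, Csf1r, Fcrl5 and Ighm fall from spleen to LN in both mice and Ighg2b, Mef2b, Nek2, Cd8a, Ifit1 and Cd209b rise.

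The 2 mice lay farther apart with immunoglobulin genes than without. The SD over all genes of the log2 difference between mouse 5 and mouse 6 was 0.903 in spleen and 0.918 in LN, and 0.324 and 0.351 without immunoglobulin genes. The SD of the change in the tissue difference from mouse to mouse was 0.408 over all genes, below the SD of the level, and 0.381 without immunoglobulin genes, above it. A gene that was higher in the spleen of 1 mouse tended to be higher in its LN, with a correlation of 0.900 over all genes and 0.367 without immunoglobulin genes.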

How the data were processed

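RNA-seq was measured in whole-tissue cells of spleen and LN. The deposited table gives a normalised signal per gene and library, which the authors made by dividing gene counts by 1 factor per library. That division was read from the values: 100% of the entries of the 4 libraries were whole multiples of 1 step, within 0.05 reads. The build was GRCm39, per the submitters' processing notes, which also name DESeq2 1.26.0, STAR 2.5, Subread 1.4.6, FastQC 0.11.5 and featureCounts without saying what each did. Annotation release, strand setting and gene filter are not given in the sources used here. Every gene of the table reached at least 109.3 in 1 of the 11 libraries, so weakly expressed genes were not analysed here. The libraries held 20476366 (spleen, mouse 5), 16442383 (LN, mouse 5), 24110325 (spleen, mouse 6) and 15125180 (LN, mouse 6) reads over these genes. In them 1 read was worth 0.858, 1.10, 0.716 and 1.15 units, and at low values counting error is large.

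Values were analysed as log2(value + 1) with limma-trend 3.58.1 (R 4.3.3, empirical Bayes with trend and robust options) over all 10885 genes of the 4 libraries, with tissue and mouse as terms and no further filter. The other 7 libraries were not used. The pairing comes from the labels, which give both tissues of a mouse the same subject number. The deviations of the 2 mice correlated between tissues at 0.900 over all genes and 0.367 without immunoglobulin genes. With 2 pairs the fit leaves 1 residual degree of freedom, so the error of a gene comes largely from the other genes (median prior degrees of freedom 18.9). In simulated data, with normally distributed errors and far fewer changed genes than were called here, the share of false calls was above the nominal level. The share among the calls made here is not known. A count model was planned for raw counts, which the table is not, and was not fitted.

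Named genes are Bcl2; the 10 largest called increases and the 10 largest called decreases with a mean of at least 50 and 1 direction in both mice, outside antigen receptor segments, pseudogenes and predicted genes; and up to 4 called members of each list with the smallest p, or 2 uncalled ones of a list with no call. Other genes named with values were chosen after their values were seen. A few genes that the rule names are not reported here. The comparison and the 47 lists, 45 of which had a measured gene, were chosen with earlier results of these data known. Promoters were matched by symbol in a RefSeq table (GRCm38.p6), in which 8496 tested genes had an entry. Alternatives were no mouse term, pseudocounts of 0.1, 5 and 20, a minimum mean of 50, 3 rescalings, no variance trend, and leaving out each library.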

Additional observations from a re-analysis of the deposited data

How the results depend on the processing

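The number of called genes, 2145 with the mouse as a replicate block, was 1237 without the block (623 higher and 614 lower in LN) and 1322 (712 and 610) without the variance trend and robust options. Under 3 pseudocounts, a minimum mean of 50, median-ratio scaling, quantile normalisation and removal of immunoglobulin and haemoglobin genes it ranged from 1870 to 2177, and the median over all genes moved by at most 0.02 on the log2 scale. With a library left out the block leaves no residual degrees of freedom, so these fits had none, and the lone sample of a tissue is assumed to vary like the other tissue. They called 648 genes (408 higher and 240 lower) without the spleen of mouse 5, 1007 (498 and 509) without the LN of mouse 5, 285 (135 and 150) without the spleen of mouse 6 and 949 (465 and 484) without the LN of mouse 6. Lists of at least 3 measured genes with most members called in 1 direction numbered 19, 11 without the block, and 9, 11, 5 and 9 with these libraries left out in turn. Of 158 named called genes, 111 were called without the block, 127 without the trend and 57 to 102 with a library left out. The direction turned only with a library left out, in 5 genes. Asns was -0.033 without the spleen of mouse 5. Without the LN of mouse 5 and without the spleen of mouse 6, Igkv8-21 was -3.03 and -3.48, Igkv1-110 -4.28 and -4.69, and Igkv4-90 -1.10 and -0.90. Igkv2-109 was 2.72 without the spleen of mouse 5 and 3.00 without the LN of mouse 6. For the 4 kappa segments these fits set a tissue of mouse 5 against a mean with mouse 6, in which the segments are near 0. For the other changes the cause was not tested. The mouse as a random term was not run, since the correlation could be estimated for 0 genes. Depth limits genes with LN values under about 10 units, where a few reads set the difference.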

Other observations

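Gene families picked by name after their values were seen are given as values, beside 10.5% of all genes called higher in LN and 9.21% called lower. Paired immunoglobulin-like receptors and their relatives of the Lilr, Pira and Pilr names, which regulate myeloid cells and B cells, were lower in LN in 9 of 9 cases, with a median of -2.25 on the log2 scale. Pirb, the inhibitory member, measured 948 and 334 in spleen and LN of mouse 5 and 941 and 448 in mouse 6, a difference of -1.29 ± 0.13 (limma adjusted p = 4.07e-07). Pilra measured 161 and 8.78 in mouse 5 and 171 and 9.19 in mouse 6. Reads may be divided among the similar members of this family. Receptors for the Fc part of IgG, together with Fcer1g, a signalling chain of some of them, were lower in 5 of 5 cases, with a median of -1.51. Of 9 Toll-like receptors, which sense microbial molecules, 5 were lower and 1 higher, the latter near the share of 10.5% over all genes. Of 12 cathepsins 5 were lower and 1 higher.

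The Ifi200 family, interferon-induced sensors of DNA, was higher in LN in 6 of 9 cases and lower in 0. Ifi213 measured 1869 and 5454 in spleen and LN of mouse 5 and 1718 and 6308 in mouse 6, a difference of 1.71 ± 0.12 (limma adjusted p = 1.41e-09). Of 7 Schlafen genes, which restrain growth and viral replication, 5 were higher, with Slfn1 at 1.58 ± 0.11 (limma adjusted p = 1.10e-09), and 1 was lower, Slfn4, a gene of myeloid cells, at -1.74 ± 0.31 (limma adjusted p = 0.000457). Condensin genes were higher in 5 of 6 cases and kinesins in 13 of 24 with 1 lower. PARP genes were higher in 6 of 12 cases and centromere protein genes in 7 of 15, with 0 lower in each.

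The share of some heavy V segments differed between the organs of 1 mouse, and that of others was level. The segments given first are those with the highest value in a library, a choice that favours a gap between organs. Each is compared with itself between libraries, since values are not divided by length. Ighv1-81 took 9.73% of the heavy V signal in the LN of mouse 5 and 9.17% in that of mouse 6, against 2.86% and 2.28% in their spleens. Ighv1-26 took 10.7% in the spleen of mouse 5 and 4.64% in its LN. Ighv9-3 took 15.1% in the spleen of mouse 6 and 7.13% in its LN, but 4.55% and 4.03% in those of mouse 5. Ighv6-3 took 4.77% in both organs of mouse 5, but 5.83% in the spleen and 2.35% in the LN of mouse 6. Ighv1-82 took 2.95% and 3.25% in spleen and LN of mouse 5, and 2.17% and 2.28% in those of mouse 6. These shares come from 1 library each and have no error, and similar segments may divide their reads.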
